A study of Xenopus tropicalis with 31 samples.

Results

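The chromatin modifier and remodeler genes are described here through 627 ATAC-Seq windows, the windows whose nearest annotated transcription start site (TSS) belongs to 1 of 109 genes. They were chosen by gene symbol from 124349 windows, of which 117398 have a named nearest gene, and cover the smarc, arid, chd, brd, cbx, hdac, sirt, kdm, kmt, setd, kat and prdm families, ezh1, ezh2, eed, suz12, ep300, crebbp, dnmt1 and tet2. A window is a stretch of 400 bp around a peak summit in version 9.0 of the Xenopus tropicalis genome, and its value is the number of sequenced fragments that Tn5 transposase released there, a measure of how accessible the DNA was. Accessibility of a window near a gene is not the expression of that gene, and the nearest TSS need not be the one a distant window acts on.

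The study followed chromatin accessibility while a tadpole tail, and the spinal cord in it, grew back. The genotype label of every sample is the transgenic line Xtr.Tg with pax6:GFP, which marks neural progenitor cells, beside cryga:RFP and actc1:RFP, and the posterior end of the tail was removed at NF stage 41. The header of the count table, however, names the all-tissue libraries WT, and the study used both wild-type and transgenic frogs, so a difference in genotype cannot be told apart from the difference between the tissues. The pax6 group holds GFP+ cells sorted by FACS from pooled, enzymatically dissociated tails, so the reporter alone defines these cells. In the study's single-cell RNA data such sorted cells also included differentiated neurons and cells outside the neural lineage. The all-tissue group holds, by the study's methods, GFP+ and GFP- cells sorted into one tube, that is all cell types of the tail, neural progenitors included. Both were taken from uninjured tails and at 0, 6, 24 and 72 hours post amputation (hpa), which gives 10 groups. By the study's text, uninjured libraries came from the cut-off tail tips and those of later timepoints from the regenerating tissue. The header of the count table instead names the uninjured libraries whole tail. On either reading, differences from uninjured also compare different pieces of the tail, which cannot be told apart from time.

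Genes of this kind encode the enzymes and complexes that open, close and mark chromatin. BAF, ISWI and CHD remodelers use ATP to move or evict nucleosomes, acetyltransferases and deacetylases add and remove acetyl groups on histones, and methyltransferases and demethylases write and erase histone methylation. Polycomb repressive complex 2 deposits a repressive methyl mark that CBX proteins of Polycomb repressive complex 1 bind, and BRD proteins read acetylated histones. In vertebrate neural development, subunits of the BAF complex are exchanged as progenitors become neurons, which is one reason why these families are followed in neural regeneration.

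Of 31 libraries, 29 were used and combined into 27 samples, 13 of pax6 cells and 14 of all-tissue cells, with 3 samples in each group except both 0hpa groups and uninjured pax6, which had 2. The 2 libraries left out held 11 and 143 counts. Total counts ranged from 3069659 to 13256076 per sample, and values are given as counts per 1000000 (CPM) after edgeR's TMM scaling. Of the windows of pax6, the one with the smallest p between the tissues lay 4941 bp upstream of the TSS (chromosome 4, 9853878 to 9854277). It had 5.14 to 13.3 CPM in the pax6 samples and 1.60 to 4.61 CPM in the all-tissue samples. Because this window was picked by that difference, it is no independent check of the sorting. The pax6 promoter also drives GFP in the transgene, whose part in the difference was not tested. The labels do not say whether replicates came from separate batches of animals, so p-values measure the spread between these samples, and in bulk samples fewer cells with an open window cannot be told apart from less signal per cell.

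The 627 windows lay at typical distances and had typical signal. A gene had 5 windows at the median and sirt1, a sirtuin deacetylase, had the most with 30, while the median over all genes was 3. Their median distance to the TSS was 15660 bp, against 16530.5 bp for all windows with a named gene, and 111 lay further than 50000 bp. In all, 69 windows of 62 genes had their summit within 500 bp of the TSS and are called promoter windows below. The median window had 4.58 CPM (4.84 CPM over all windows), and the median promoter window 6.06 CPM (5.43 CPM over all promoter windows).

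A few windows stood far above that level: 17 of the 627 exceeded a mean of 30 CPM. The highest, 19825 bp downstream of the TSS of kdm5a-like.2, which is named after a histone demethylase, had 79.4 to 122 CPM in pax6 samples (median 91.8) and 81.9 to 129 CPM in all-tissue samples (median 95.2). A window 317 bp upstream of hdac6-like, named after a deacetylase, had 48.6 to 86.3 CPM in pax6 samples (median 71.5) and 64.7 to 96.3 CPM in all-tissue samples (median 71.7). A window 2122 bp upstream of prdm4, which encodes a zinc finger protein of the PRDM family, had 55.3 to 87.5 CPM (median 66.8) and 57.2 to 81.5 CPM (median 68.8), respectively. The log2 differences between the tissues at these windows were -0.01, -0.08 and 0.00, and none passed the test.

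To ask whether these loci are opened differently in the GFP+ cells than in the whole tail, all pax6 and all-tissue samples were compared. Few windows were called, too few to say whether the chromatin genes stood apart as a group. Of 627 windows, 9 were called at an adjusted p under 0.05 (edgeR's quasi-likelihood F test, p-values adjusted by Benjamini-Hochberg over all windows), which is 1.44% against 1.52% of all 124342 windows tested. A single window was more accessible in pax6 cells, near chd1 (0.639% of all windows were called in this direction), and 8 were less accessible, among them windows near kat6a, kat7, setd4, cbx8, kmt2d, kdm7a and smarcd2 (0.885%). The median log2 difference was -0.01 over the 627 windows and 0.00 over all windows.

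Among the remodelers, chd1 encodes an ATPase that spaces nucleosomes in transcribed genes. The window 4705 bp upstream of its TSS (chromosome 1, 173635294 to 173635693) had 33.4 to 40.9 CPM in the pax6 samples (median 37.4) and 22.6 to 32.5 CPM in the all-tissue samples (median 26.8). Every pax6 sample lay above every all-tissue sample, which held for no other of the 627 windows and for 0.0233% of all windows. The log2 difference was 0.48 ± 0.06 (SE, n = 13 and 14, adjusted p = 1.56e-07). The other 3 windows of chd1 did not follow: the promoter window had a log2 difference of -0.28 ± 0.14 (adjusted p = 0.338), and the windows 33788 and 37461 bp downstream had -0.02 and -0.13.

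The BAF subunit gene smarcd2 was called at its promoter, in the opposite direction. The window that holds its TSS (chromosome 10, 8610822 to 8611221) had 4.79 to 10.1 CPM in pax6 samples (median 6.76) and 5.73 to 18.6 CPM in all-tissue samples (median 10.7), and the groups overlapped. Its log2 difference was -0.65 ± 0.17 (adjusted p = 0.0444). None of the 8 other windows of smarcd2 was called, and their differences ranged from -0.11 to 0.16. The call over all timepoints was lost in 19 of 27 runs that left out a sample (adjusted p from 0.0122 to 0.0779), and the difference was not the same at all timepoints, as given below.

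Both called windows of acetyltransferase genes were less accessible in pax6 cells. kat6a encodes the catalytic subunit of a histone H3 acetyltransferase complex. Its window 19124 bp downstream of the TSS (chromosome 3, 120183894 to 120184293) had 3.16 to 6.75 CPM in pax6 samples (median 4.89) and 5.16 to 8.83 CPM in all-tissue samples (median 7.30), a log2 difference of -0.61 ± 0.11 (adjusted p = 0.000425). Every pax6 sample lay below the all-tissue median, although the ranges overlapped. The other 6 windows of kat6a had differences from -0.49 to 0.09, none of them called.

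kat7 encodes a related acetyltransferase that acts on histones H3 and H4. The window called lay 50391 bp from its TSS (chromosome 10, 9771531 to 9771930), where it had 0.791 to 4.28 CPM in pax6 samples (median 3.04) and 2.67 to 7.13 CPM in all-tissue samples (median 4.87). Every pax6 sample lay below the all-tissue median here too, and the ranges overlapped. The log2 difference was -0.78 ± 0.15 (adjusted p = 0.00133). The neighbouring windows on that side are assigned to dlx4, a homeobox gene, so that this window sits between both loci. Of the 4 acetyltransferase genes with promoter windows, ep300 came closest to a call, with 3.26 to 8.54 CPM in pax6 samples (median 5.31), 4.01 to 12.4 CPM in all-tissue samples (median 9.13) and a log2 difference of -0.52 ± 0.15 (adjusted p = 0.0579).

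Among the writers and erasers of histone methylation, 3 genes had a window that was less accessible in pax6 cells. The setd4 window 90461 bp downstream of the TSS (chromosome 2, 9464246 to 9464645), on the side where runx1 is the next gene, had 12.2 to 16.4 CPM in pax6 samples (median 14.1) and 13.6 to 20.2 CPM in all-tissue samples (median 18.1), with a log2 difference of -0.30 ± 0.07 (adjusted p = 0.0155). setd4 encodes a SET domain methyltransferase, and the other 18 windows assigned to it were not called. The kmt2d window 1559 bp downstream of the TSS (chromosome 2, 133162249 to 133162648) had 1.79 to 7.01 CPM in pax6 samples (median 4.96) and 3.82 to 9.61 CPM in all-tissue samples (median 7.02), with a log2 difference of -0.51 ± 0.13 (adjusted p = 0.0260). kmt2d encodes a methyltransferase that marks enhancers. The window 5209 bp downstream of the TSS of kdm7a (chromosome 3, 257368 to 257767), a demethylase gene, had 0.842 to 5.10 CPM in pax6 samples (median 3.43) and 3.82 to 6.79 CPM in all-tissue samples (median 4.96), with a log2 difference of -0.59 ± 0.15 (adjusted p = 0.0277). In all 3 windows the highest pax6 samples overlapped the all-tissue range.

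A called promoter window belonged to a gene for a protein that reads histone marks. cbx8 encodes a Polycomb subunit that binds methylated histone H3, and its promoter window (chromosome 10, 24952249 to 24952648) had 4.35 to 9.89 CPM in pax6 samples (median 7.76) and 4.58 to 14.2 CPM in all-tissue samples (median 10.5). The ranges of the tissues overlapped, and the log2 difference was -0.44 ± 0.11 (adjusted p = 0.0241).

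**Figure D1:**
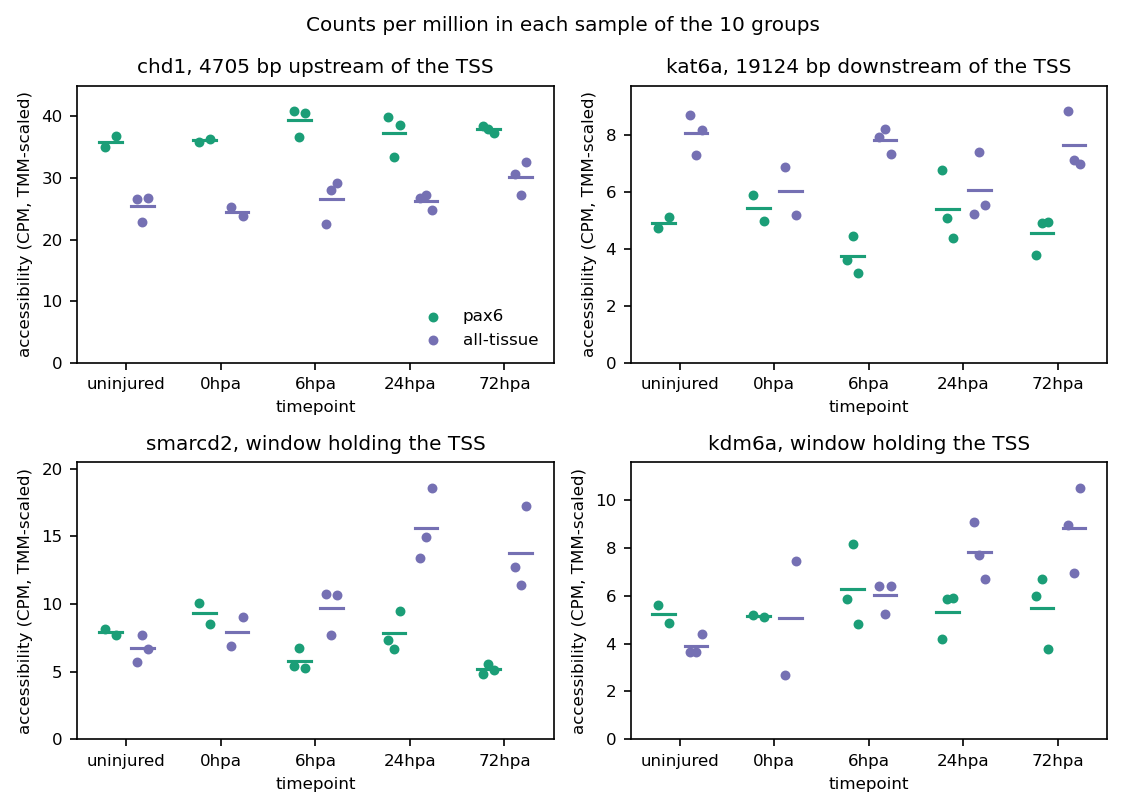
CPM of the chd1 (4705 bp upstream), kat6a (19124 bp downstream), smarcd2 (promoter) and kdm6a (promoter) windows in each of the 10 groups, pax6 and all-tissue side by side along the timepoints. Points are samples and bars are group means. The chd1 window lay higher in pax6 at every timepoint, and the smarcd2 window reached 11.4 to 18.6 CPM in the all-tissue samples of 24hpa and 72hpa against 4.79 to 9.50 CPM in pax6.

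Several windows lay just outside the threshold, and in families without a call the smallest p was as follows. A window 13404 bp downstream of hdac6-like had a log2 difference of 0.42 (adjusted p = 0.0536). A window 13600 bp upstream of tet2, an enzyme that oxidises methylated cytosine, had 0.30 (adjusted p = 0.0555). The promoter windows of smarcd1, a BAF subunit, and smarca5, the ISWI ATPase, had -0.41 and -0.48 (adjusted p = 0.0558 and 0.0583). A window 4553 bp downstream of eed, a core subunit of Polycomb repressive complex 2, had -0.42 (adjusted p = 0.0765). For PRDM factors, sirtuins and the other ARID proteins the smallest adjusted p was 0.103 at prdm11-like, 0.151 at the sirt1 promoter and 0.210 at the arid3b promoter. An adjusted p over 0.05 does not show that the tissues were alike at these windows.

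Most of the calls rested on a narrow margin. The chd1, kat6a and kat7 windows were called in each of 16 other ways of processing the data and each time a sample was left out, whereas the remaining 6 were each lost in at least 4 of the 16, including the runs without the 6hpa or without the 72hpa samples, when 3 windows were called. The cbx8 and setd4 windows, too, stayed called each time a single sample was left out. Without replicate 1 of all-tissue 0hpa 24 of the 627 windows were called (3.83%, beside 2.63% of all windows). Without replicate 3 of pax6 0hpa 17 were called (2.71%, beside 1.9% of all windows).

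The promoter windows of the chromatin genes were on the whole less accessible in the pax6 samples. Of the 69 promoter windows, 62 had a log2 difference below 0, with a median of -0.25 and quartiles of -0.36 and -0.13, while the 558 more distant windows were balanced around 0.00, with 48.75% below 0. Promoter windows of the whole genome shared this: 80.16% of 9148 lay below 0, with a median of -0.16. The 3 promoter windows called, those of cbx8 and smarcd2 among them, made up 4.35%, and 3.68% of all promoter windows were called. These differences are relative to the counts in all windows, and promoter windows of all genes held 6.69 ± 0.43% (SD, n = 13) of the counts of a pax6 sample and 7.32 ± 0.74% (n = 14) of an all-tissue sample.

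The scale decides how the promoter windows read. With TMM factors computed on promoter windows alone, an alternative chosen after seeing the data, the median of all windows moved from 0.00 to 0.16, that of all promoter windows to 0.01 and that of the chromatin gene promoters to -0.08. On that scale 34 of the 627 windows were called, 31 of them more accessible in pax6 cells and 3 less, against 1 and 8 above. Of all windows 5.94% were called on it, 95.7% of these in the direction of pax6. The chd1, kat6a and kat7 windows and the smarcd2 promoter window stayed called. The fit of all 10 groups used below was not run on that scale, so its calls at promoter windows were not checked there.

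By role, the promoter windows of acetyltransferases and of Polycomb repressive complex 2 had some of the lowest medians. All 6 promoter windows of acetyltransferase genes lay below 0 with a median log2 difference of -0.40 (-0.22 with promoter TMM), as did both of Polycomb repressive complex 2 (-0.40 and -0.22). The 8 promoter windows of BAF subunits, such as smarcc1 (-0.31) and smarcb1 (-0.31), also all lay below 0, with a median of -0.28 (-0.12 with promoter TMM and 7 below 0). Those of the 8 CBX windows, from -0.44 at cbx8 to -0.01 at cbx1, had a median of -0.19, and 4 of the 8 lay below 0 with promoter TMM.

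In the enzymes of histone methylation the spread was wider. Of 11 promoter windows of KDM demethylases 10 lay below 0 (7 with promoter TMM), from -0.44 at kdm1a-like to 0.09 at kdm5b, and of 9 promoter windows of methyltransferases 8 (6 with promoter TMM), from -0.36 at setd7 to 0.03 at setd9. The sirtuins (median -0.12), PRDM factors (-0.08) and other ARID proteins (-0.14) had medians nearer 0, which turned to 0.06, 0.08 and 0.03 with promoter TMM. No test was made between roles, which share samples and hold 1 to 11 promoter windows each.

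**Figure D2:**
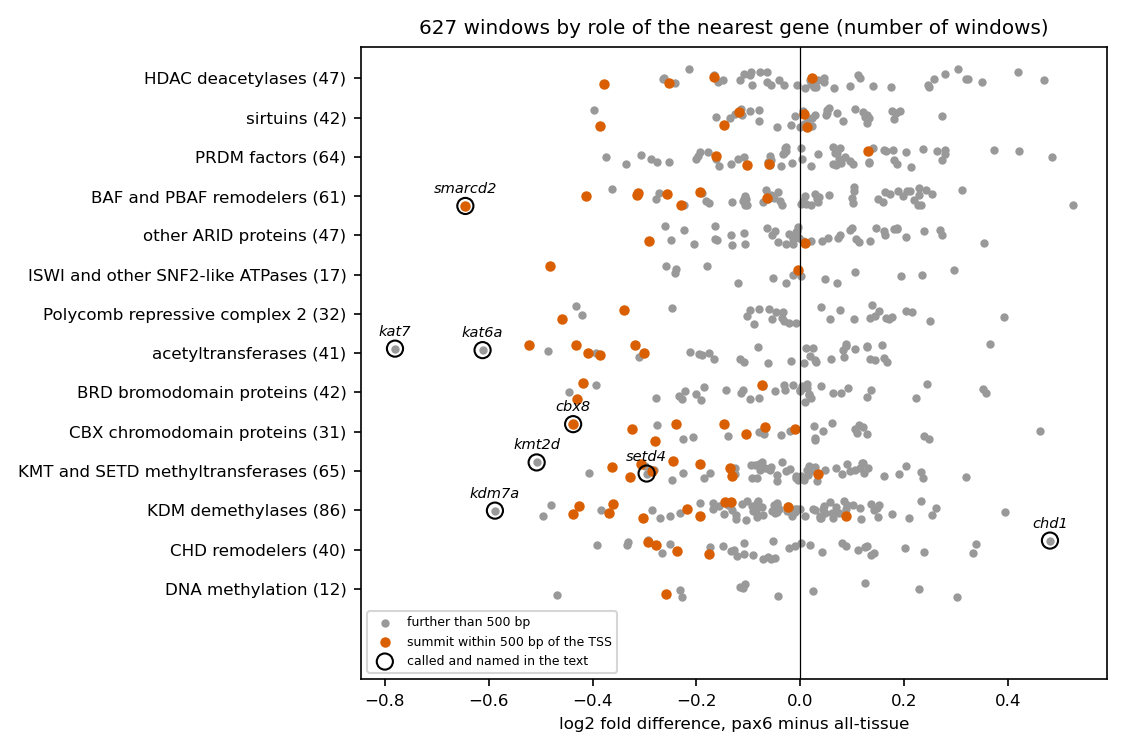
Log2 difference between pax6 and all-tissue of each of the 627 windows, grouped by role, with promoter windows in orange and the called windows named in the text ringed. Promoter windows lie mostly below 0 (62 of 69) and the more distant windows are spread on both sides of 0. With TMM factors from promoter windows 44 of the 69 lie below 0, and the medians of sirtuins, PRDM factors and other ARID proteins turn positive.

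Each timepoint was then compared on its own, in a fit of all 10 groups, with 2 or 3 samples on each side. In uninjured tails 0 of the 627 windows were called (edgeR's quasi-likelihood F test, Benjamini-Hochberg adjusted), beside 0.0129% of all windows, and DESeq2 called 0. An unadjusted p under 0.05 was found at 51 of them (8.13%, against 7.3% of all windows). At 0hpa the count was again 0, beside 0.00724% of all windows, and DESeq2 called 0. An unadjusted p under 0.05 was found at 39 (6.22%, against 5.74% of all windows). At 6hpa 2 windows were called (0.0844% of all windows), at 24hpa 1 (0.041%) and at 72hpa 2 (0.369%). With counts this small the shares say nothing of the chromatin genes as a group, and the windows are described singly.

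The chd1 and kat6a windows described above were the calls at 6hpa. At the upstream chd1 window the pax6 samples of 6hpa had 40.9, 36.7 and 40.6 CPM and the all-tissue samples 22.6, 28.1 and 29.2 CPM, a log2 difference of 0.56 ± 0.12 (adjusted p = 0.0407). Its difference was positive at every timepoint, with 0.48 in uninjured tails, 0.56 at 0hpa, 0.50 at 24hpa and 0.33 at 72hpa, and a change of the difference over time was not called (adjusted p = 0.957). At the kat6a window the pax6 samples of 6hpa had 3.60, 4.45 and 3.16 CPM and the all-tissue samples 7.91, 8.21 and 7.31 CPM, a log2 difference of -1.06 ± 0.23 (adjusted p = 0.0420). The samples of the tissues did not overlap at 6hpa in either window. Leaving out single samples ended the 6hpa call of chd1 in 11 of 27 cases and that of kat6a in 12, and DESeq2 did not call kat6a. Both calls were also lost without the second libraries that 2 all-tissue samples had, and with only the 23 libraries behind the authors' comparison tables.

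The smarcd2 promoter was the window with the clearest dependence on time. In pax6 cells it had 8.15 and 7.68 CPM in uninjured tails, 10.1 and 8.54 CPM at 0hpa, 5.39, 6.76 and 5.26 CPM at 6hpa, 7.35, 6.66 and 9.50 CPM at 24hpa and 4.79, 5.59 and 5.14 CPM at 72hpa. In the all-tissue samples it had 5.73, 7.70 and 6.69 CPM in uninjured tails, 6.87 and 9.01 CPM at 0hpa, 10.8, 7.71 and 10.7 CPM at 6hpa, 13.4, 15.0 and 18.6 CPM at 24hpa and 12.8, 11.4 and 17.2 CPM at 72hpa. The tissues overlapped before amputation and at 0hpa, and at 6hpa, 24hpa and 72hpa every all-tissue sample lay above every pax6 sample. In pax6 cells every 72hpa sample lay below the uninjured samples, a fall that was not called.

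Within the all-tissue samples the smarcd2 promoter rose by a log2 difference of 1.26 ± 0.19 from uninjured to 24hpa (adjusted p = 0.00198) and was 1.06 ± 0.19 above uninjured at 72hpa (adjusted p = 0.00857). The 24hpa call was lost without replicate 1 of uninjured or replicate 3 of 24hpa (adjusted p up to 0.238), and the 72hpa call without replicate 1 or 3 of uninjured, without replicate 3 of 72hpa (up to 0.205) and without the second libraries (0.0897). The difference between pax6 and all-tissue was 0.28 ± 0.23 in uninjured tails and 0.15 ± 0.24 at 0hpa, and -0.73 ± 0.21 at 6hpa, none of which passed the test. It was -1.03 ± 0.18 at 24hpa (adjusted p = 0.0129) and -1.40 ± 0.20 at 72hpa (adjusted p = 0.000268). Over all promoter windows the median difference between the tissues was -0.29 at 24hpa and -0.28 at 72hpa. The median rises of all promoter windows within the all-tissue samples were 0.30 and 0.29. Whether the change over time differed between the tissues was tested jointly over the 4 timepoints after amputation, and smarcd2 was the only 1 of the 627 windows called (adjusted p = 0.0364), among 0.00402% of all windows. Between 6hpa and 24hpa alone, a change that differed between the tissues was called in 0 windows by edgeR, beside 0.0% of all windows, and 0 by DESeq2. An unadjusted p under 0.05 was found at 50 (7.97%, against 7.28% of all windows). The 72hpa difference was called in every run with a sample left out, the 24hpa difference was lost without replicate 1 or 2 of pax6 24hpa or replicate 3 of all-tissue 24hpa, and the joint test was lost in 18 of 27 runs and when the second libraries were left out.

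Demethylase promoters supplied the remaining calls at single timepoints. kdm6a encodes a demethylase that removes the mark of Polycomb repressive complex 2. The window that holds its TSS (chromosome 2, 69101241 to 69101640) had 3.67, 3.65 and 4.42 CPM in uninjured all-tissue samples, 2.67 and 7.47 CPM at 0hpa, 6.40, 5.23 and 6.43 CPM at 6hpa, 9.09, 7.73 and 6.69 CPM at 24hpa and 8.98, 6.97 and 10.5 CPM at 72hpa. All 72hpa samples lay above all uninjured samples, and the rise was 1.17 ± 0.25 on the log2 scale (adjusted p = 0.0352). The median rise over all promoter windows was 0.29. In pax6 cells the window had 5.60 and 4.86 CPM in uninjured tails and 5.99, 6.71 and 3.76 CPM at 72hpa, and a difference between the tissues in the change over time was not called (adjusted p = 0.730). The kdm6a call was lost without any 1 of the uninjured all-tissue replicates or of replicates 1 and 3 of all-tissue 72hpa (adjusted p up to 0.343), and when the second libraries were left out (0.196).

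kdm5c encodes a demethylase that removes a mark of active promoters. Its promoter window (chromosome 8, 7542510 to 7542909, 85 bp upstream of the TSS) had 3.76, 6.85 and 3.36 CPM in the pax6 samples of 72hpa and 10.3, 7.80 and 12.1 CPM in the all-tissue samples. The tissues did not overlap, and the log2 difference was -1.07 ± 0.24 (adjusted p = 0.0320). Over all promoter windows the median difference at 72hpa was -0.28. The kdm5c difference was 0.15 at 6hpa and -0.60 at 24hpa, neither of them called. The joint test of a change of the kdm5c difference over time was not passed (adjusted p = 0.590). The 72hpa call was lost without replicate 1 or 3 of either tissue at 72hpa (adjusted p up to 0.212) and when the second libraries were left out (0.117).

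The promoter windows as a set differed between the timepoints as well, in the chromatin genes and in the genome as a whole. The median log2 difference between pax6 and all-tissue over the 69 promoter windows was -0.19 in uninjured tails, 0.13 at 0hpa, -0.15 at 6hpa, -0.42 at 24hpa and -0.43 at 72hpa, when 94.2% lay below 0. Over all 9148 promoter windows it was -0.14, 0.09, -0.11, -0.29 and -0.28. The 558 more distant windows of the chromatin genes had medians between -0.0046 and 0.012 at all timepoints. The all-tissue samples of 0hpa were few and uneven: the summed CPM of the 69 promoter windows was 288 and 454 in these 2 samples, and it lay between 301 and 450 in all pax6 samples.

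**Figure D3:**
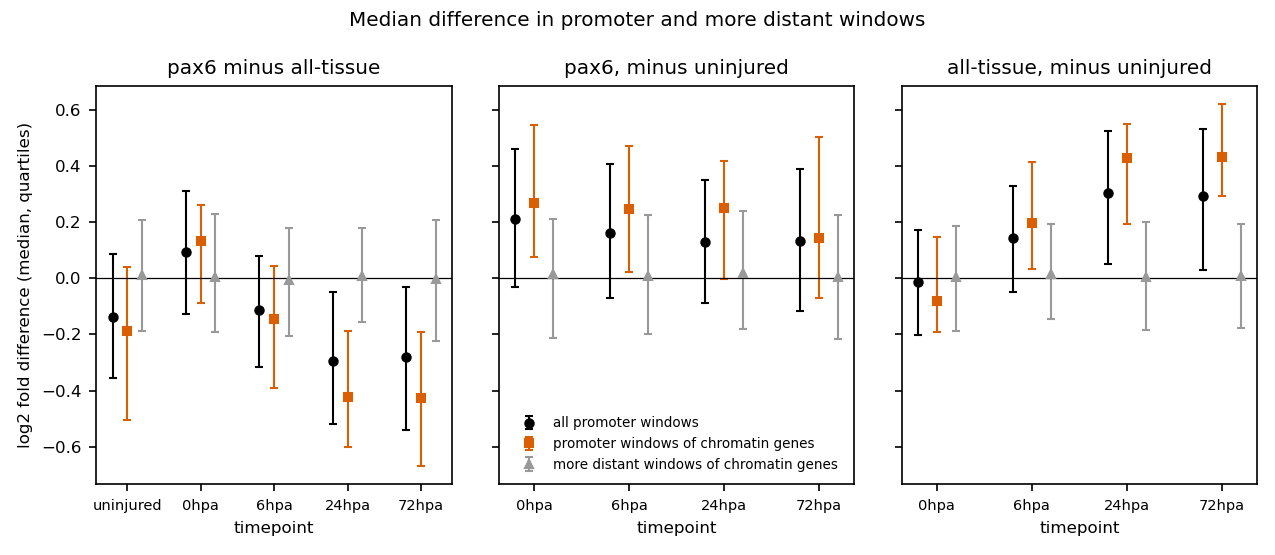
Median log2 difference, with quartiles, over all promoter windows, the 69 promoter windows of chromatin genes and their 558 more distant windows, for pax6 minus all-tissue at each timepoint and for each timepoint minus uninjured within a tissue. The distant windows stay at 0 and the 2 promoter sets move together, with medians of -0.43 and -0.28 for pax6 minus all-tissue at 72hpa.

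Within the all-tissue samples the promoter windows of chromatin genes had median log2 differences from uninjured of -0.08 at 0hpa, 0.20 at 6hpa, 0.43 at 24hpa and 0.43 at 72hpa, and all promoter windows -0.01, 0.14, 0.30 and 0.29. Their summed accessibility was 397 ± 37 CPM in uninjured tails (SD, n = 3), 462 ± 21 CPM at 6hpa, 519 ± 81 CPM at 24hpa and 542 ± 75 CPM at 72hpa, against 3804 ± 51 and 3884 ± 45 CPM for the distant windows at the first and last of these. Of the single windows, 1 was called at 24hpa (smarcd2, beside 0.00965% of all windows) and 2 at 72hpa (smarcd2 and kdm6a, beside 0.109%). Over the 4 differences from uninjured jointly, smarcd2 alone was called (adjusted p = 0.00133), beside 0.105% of all windows. At 0hpa and 6hpa against uninjured, 24hpa against 6hpa and 72hpa against 24hpa, edgeR called 0 of the 627 windows and DESeq2 called 0. An unadjusted p under 0.05 was found at 32, 35, 30 and 30 (5.1%, 5.58%, 4.78% and 4.78%). Of all windows 3.7%, 4.67%, 4.38% and 3.99% had an unadjusted p that low. Leaving out replicate 1 of the uninjured all-tissue samples left 0 called windows between timepoints, and leaving out either all-tissue 0hpa sample gave 8 calls over the 6 contrasts, beside 0.0588% or 0.0587% of the tests of all windows.

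In pax6 cells no window of a chromatin gene passed the test between timepoints. The promoter windows of chromatin genes had median log2 differences from uninjured of 0.27 at 0hpa, 0.25 at 6hpa, 0.25 at 24hpa and 0.14 at 72hpa. Those of all promoter windows were 0.21, 0.16, 0.13 and 0.13, and uninjured pax6 had 2 samples. In each of 6 contrasts, 0, 6, 24 and 72hpa against uninjured, 24hpa against 6hpa and 72hpa against 24hpa, edgeR called 0 of the 627 windows and DESeq2 called 0. An unadjusted p under 0.05 was found at 42, 50, 50, 62, 44 and 50 windows (6.7%, 7.97%, 7.97%, 9.89%, 7.02% and 7.97%). Of all windows 5.34%, 7.32%, 7.53%, 8.55%, 7.71% and 7.14% had an unadjusted p that low. At an adjusted p under 0.05, 0.000804% of all windows were called at 0hpa and 0.0% in the other 5 contrasts. The joint test over the 4 differences from uninjured called 0 as well, beside 0.000804% of all windows. Its unadjusted p was under 0.05 at 56 (8.93%, against 7.44% of all windows). When replicate 1 of uninjured pax6 was left out, so that a single uninjured sample was assumed to vary like the other groups, 45 of the 3762 tests of chromatin windows in the 6 contrasts gave a call, beside 0.779% of the tests of all windows. Without replicate 2 instead, 0 were called.

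The windows with the smallest p in pax6 cells over time had the following values. A window 9512 bp downstream of sirt6, a sirtuin deacetylase gene, had 1.47 and 0.768 CPM in uninjured tails and 5.13, 3.77 and 4.94 CPM at 72hpa, a log2 difference of 1.85 ± 0.43 (adjusted p = 0.188). The samples did not overlap, but the uninjured values are among the lowest of any window here. For a window of hdac10, a deacetylase gene, the uninjured samples had 3.14 and 3.33 CPM and the 24hpa samples 6.60, 6.66 and 8.10 CPM, a log2 difference of 1.14 (adjusted p = 0.367). For a window 10285 bp upstream of sirt1 the uninjured samples had 5.01 and 7.42 CPM and the 6hpa samples 3.27, 2.14 and 1.89 CPM, a log2 difference of -1.25 (adjusted p = 0.371).

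All 6hpa, 24hpa and 72hpa samples of both tissues were also compared with all uninjured and 0hpa samples. edgeR called 0 of the 627 windows, beside 0.126% of all windows. An unadjusted p under 0.05 was found at 96 (15.3%, against 11.1% of all windows). DESeq2 called 5, all of them higher after 6hpa or later, among them windows near arid4a, dnmt1, ezh2 and hdac10. The share of all windows that DESeq2 called is not given here. The smallest p was at the hdac10 window, with a log2 difference of 0.53 (adjusted p = 0.0615). Of the 69 promoter windows 5.797% lay below 0 in this comparison, with a median of 0.24, and of all promoter windows 23.87%, with a median of 0.15. Without replicate 3 of all-tissue 0hpa 24 of the 627 windows were called, beside 1.8% of all windows. Without replicate 1 of uninjured pax6 25 of the 627 were called, beside 2.25% of all windows.

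When the windows of each gene were summed, 2 of the 109 genes were called between the tissues, beside 2.73% of all 23175 genes. chd1 had 57.4 ± 3.4 CPM over its 4 windows in pax6 samples (SD, n = 13) and 45.9 ± 4.6 CPM in all-tissue samples (n = 14), a log2 difference of 0.31 ± 0.05 (SE, adjusted p = 3.36e-05). kat6a had 41.0 ± 4.4 CPM over 7 windows in pax6 samples and 48.1 ± 4.7 CPM in all-tissue samples, a log2 difference of -0.23 ± 0.05 (adjusted p = 0.0115). The median over the 109 genes was -0.03, against 0.00 over all genes. Of all counts, the 627 windows held 0.423 ± 0.011% in pax6 samples and 0.428 ± 0.016% in all-tissue samples, and the difference of -0.0056 percentage points had p = 0.299 in a two-sided permutation test over samples.

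**Figure D4:**
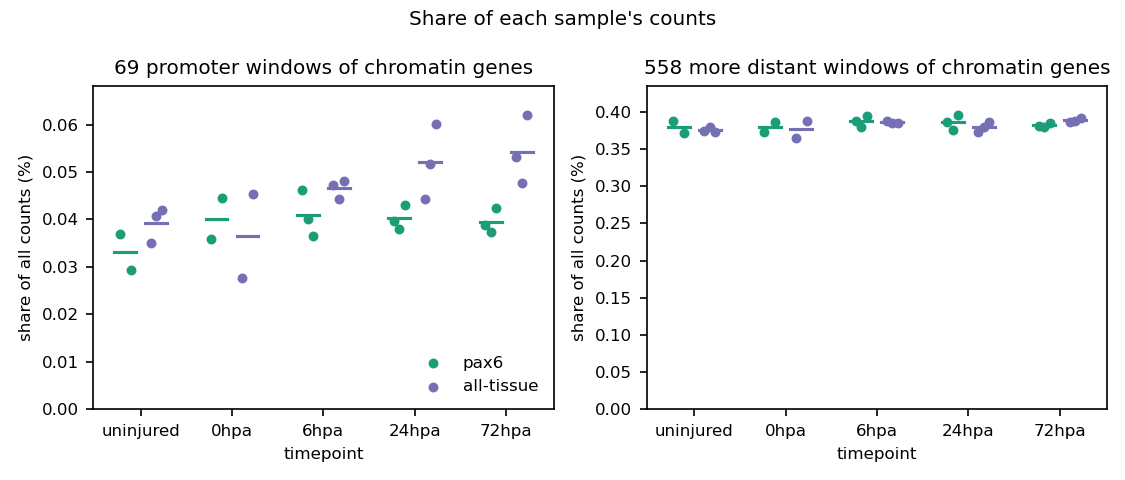
Share of a sample's counts (%) in the 69 promoter windows and in the 558 more distant windows of chromatin genes, by group, with points for samples and bars for group means. The promoter share of the all-tissue samples had means of 0.0393% in uninjured tails and 0.0542% at 72hpa, and that of the pax6 samples 0.0332% and 0.0395%.

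For chromatin genes outside the named families the counts were as follows. Of a list of 83 such genes, 57 had 252 windows, of which 0 were called higher and 5 lower in pax6 cells, near asxl2, a Polycomb-associated gene, mbd2, which encodes a reader of methylated DNA, and rcor1, a corepressor gene, where 0.639% of all windows were called higher and 0.885% lower. Of their 43 promoter windows 38 had a difference below 0, with a median of -0.25, and of all promoter windows 80.16% did, with a median of -0.16. For the BAF subunits known from mammals to mark neural progenitors, 17 windows of 4 genes held no call, and for the neuronal ones only dpf1 of 4 genes had windows, 3 in number and none called. The list of genes was chosen with earlier results of these data known.

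Marker windows of tail cell types were called between the tissues as follows, where 0.639% of all windows were called higher and 0.885% lower in pax6 samples. Of 48 windows near 9 epidermis genes, 3 were less accessible in pax6 samples (krt12, krt8 and tp63), with a median log2 difference of -0.02 over the 48. All 5 epidermis promoter windows had a difference below 0, with a median of -0.43 (80.16% and -0.16 over all promoter windows), and none was called. Their summed CPM ranged from 15.2 to 25.8 in pax6 samples and from 15.1 to 37.8 in all-tissue samples. Of 56 windows near blood and vessel genes 1 was less accessible (runx1; median 0.04), and of 25 notochord windows none was called. Of 18 muscle windows 1, the promoter of actc1, which also drives RFP in the transgene, was more accessible in pax6 samples, with a log2 difference of 1.32, and 1 of 77 progenitor windows (pax6) and 1 of 75 neuron windows (elavl3) were more accessible. The part of the cell mixture, or of a genotype that may differ, in the differences at smarcd2, kdm6a, kdm5c and the other promoter windows was not tested.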

How the data were processed

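ATAC-Seq libraries of pax6 (GFP+) and all-tissue tail cells were analysed from the deposited raw counts of fragments in 124349 windows, which carry no normalization. Per the labels and the study's methods, reads were trimmed (Trim Galore) and mapped by Bowtie2 to Xenopus tropicalis 9.0, duplicates were removed (SAMtools), MACS2 called peaks on the merged reads of all libraries, and featureCounts counted fragments of up to 2000 bp, all by the authors (versions not given in the sources used here). Because peaks were called on merged reads, a window open in few cells of 1 group may be missing. The nearest gene and the signed distance to its TSS (negative is upstream) came from the authors' annotated table. Their comparison tables also hold fold changes and p-values, which were not used. The deposited summit scores (-log10 q-value as MACS2 writes it) served only to place window centres and are not reported.

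Second libraries of 2 all-tissue samples, titled 1.1, were summed with replicate 1. The column name of the 72hpa one can also be read as a second library of replicate 2. Chi-square per degree of freedom, a measure of spread, was 2.637 between uninjured libraries 1 and 1.1, and 1.296 between 1.1 and 3. At 72hpa it was 1.77 between 1 and 1.1, and 1.415 between 1 and 2. Whether each pair is a single sample was therefore not settled. The filter asked for 1 CPM or more in 2 or more samples (124342 windows passed, among them all 627 of the chromatin genes). Tests used edgeR 4.0.16 in R 4.3.3 (TMM scaling, robust dispersion, quasi-likelihood F test) with Benjamini-Hochberg adjustment over all windows and a threshold of 0.05. A 2-group model compared the tissues, and a 10-group model compared tissues within timepoints, timepoints within tissues and their interaction. Gene totals were fitted over 23175 genes, and the permutation test used 100000 resamples. Alternatives were DESeq2 1.42.0, limma 3.58.1 (voom), other scalings, filters, thresholds and sets of libraries, and every sample was dropped once. The code was tested on simulated data.

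The members, gene lists and tests were chosen with earlier results of these data known. Results for some windows are not reported here. Windows named are otherwise the called ones (at most 10 per direction, or 5 per contrast over time), the one of smallest p in each role or in a contrast without a call, the genes called in the totals, and promoter windows of core genes of each role. The strongest windows by CPM were chosen after their values were seen. Gene symbols are those of the authors' table. Of the 109, 89 match a symbol and 1 a synonym in the RefSeq gene table. At this depth a window of median signal rests on few reads, and the smallest count in a called window that is named was 4.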

Additional observations from a re-analysis of the deposited data

Results flagged for a closer look

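The promoter window of smarcd2, a BAF subunit gene, stood out because its change over time differed between the pax6 and the all-tissue samples in a test of the difference itself. The joint test over the 4 timepoints after amputation gave an adjusted p of 0.0364 (edgeR's quasi-likelihood F test, Benjamini-Hochberg adjusted). The all-tissue samples had 5.73 to 7.70 CPM in uninjured tails and 11.4 to 17.2 CPM at 72hpa, and the pax6 samples 7.68 and 8.15 CPM and 4.79 to 5.59 CPM. With each of the 27 samples left out in turn the adjusted p ranged from 0.0121 to 0.198.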

How the results depend on the processing

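Between pax6 and all-tissue 9 windows of the 627 were called, and 8 of 17 other ways of processing gave a count within 1.5 times of that, among them DESeq2 with 13. The count was 21 at an adjusted p under 0.10, 19 with edgeR's likelihood ratio test, 25 with 23 libraries, 22 without the 0hpa samples, 14 as a mean over timepoints and 34 with TMM factors from promoter windows. It was 5 without the second libraries, 3 without the 6hpa samples and 3 without the 72hpa samples. Within timepoints 5 calls became 16 at an adjusted p under 0.10, 2 without the second libraries and 20 with the 23 libraries. Between all-tissue timepoints 3 calls became 7 at an adjusted p under 0.10, 8 with 5 groups of a single tissue, 1 without the second libraries and 11 with the 23 libraries. The interaction, with 1 call, had 0 without the second libraries and 0 with the 23 libraries. The comparison of 6hpa and later with uninjured and 0hpa, with 0 calls, had 7 at an adjusted p under 0.10 and 5 with DESeq2. The cause of these shifts was not tested. The share of all windows called in these settings is not given beside the counts, so the shifts say nothing of the chromatin genes as a group. TMM from promoter windows, and the 23 libraries in the 10-group fit, were chosen after seeing the data.

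With each sample left out in turn, the counts ranged from 6 to 24 between the tissues, from 3 to 18 within timepoints, from 0 to 45 between pax6 timepoints, from 0 to 8 between all-tissue timepoints, from 0 to 2 for the interaction, from 0 to 25 for the comparison of later with earlier samples and from 2 to 6 for gene totals. The highest within timepoints came without replicate 1 of uninjured pax6, beside 0.307% of the tests of all windows. The interaction had 2 without replicate 3 of all-tissue 0hpa, beside 0.0543% of the tests of all windows. Shares beside the highest counts between timepoints and for later against earlier samples are given above. The highest for gene totals came without replicate 1 of all-tissue 0hpa, and the share of all genes called there is not given. The calls between the tissues over all windows moved as well, from 1267 to 3269.

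Whether the replicate numbers pair the samples could not be decided, because deviations within groups of 2 or 3 samples constrain each other. Over 12 same-numbered pairs of pax6 and all-tissue samples the correlation of deviations ranged from -0.103 to 0.0797. Pairs with other numbers ranged from -0.0797 to 0.103, and 6 of 12 pax6 samples correlated best with their own number. With the replicate number as a block, 8 windows were called between the tissues, 9 within timepoints, 8 between all-tissue timepoints, 11 for the comparison of later with earlier samples, 0 between pax6 timepoints and 2 for gene totals. These counts too stand without the share of all windows called with the block. DESeq2 was not run for the joint test of the interaction.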

Other observations

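Of 12 core genes on a fixed list, 6 had a promoter window, and that of ep300 is given above. The others had these log2 differences between pax6 and all-tissue, none of them called (edgeR's quasi-likelihood F test, Benjamini-Hochberg adjusted). smarca4, an ATPase of the BAF complex, had -0.23 ± 0.13 (SE, adjusted p = 0.439) and arid1a, its DNA-binding subunit, -0.26 ± 0.16 (adjusted p = 0.504). For Polycomb repressive complex 2, ezh2 had -0.34 ± 0.16 (adjusted p = 0.324) and suz12 -0.46 ± 0.16 (adjusted p = 0.150). dnmt1, the maintenance DNA methyltransferase, had -0.26 ± 0.16 (adjusted p = 0.503), and -0.08 with promoter TMM. Of all promoter windows 80.16% lay below 0 on the main scale, with a median of -0.16.

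Of the 69 promoter windows of chromatin genes, 7 had a log2 difference of 0 or above. They belong to kdm5b (0.09), setd9 (0.03), prdm2 (0.13), hdac9 (0.02), arid4a (0.01), sirt1 (201 bp downstream, 0.01) and sirt5 (0.01), and all 7 lay within 1 standard error of 0. sirt1 and prdm2 each have another promoter window, at -0.39 and -0.06.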
